A study of Homo sapiens with 12 samples.

Results

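The constitutive subunits of the proteasome were followed across MKN28 and MKN45, established human lines of gastric adenocarcinoma in which the level of ZNF165 had been changed. The 31 genes were taken by name: PSMA1 to PSMA7 (7 genes of the alpha ring), PSMB1 to PSMB7 (7 genes of the beta ring), PSMC1 to PSMC6 with PSMD1, PSMD2 and PSMD4 (9 genes of the base), and PSMD3, PSMD6, PSMD7, PSMD8, PSMD11, PSMD12, PSMD13 and PSMD14 (8 genes of the lid). All 31 were found among the 50868 gene identifiers of the count table, and all 31 passed the filter on low counts in every comparison.

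The 12 libraries form 4 groups of 3: MKN28 cells with ZNF165 knocked down, MKN28 cells with a control lentivirus, MKN45 cells overexpressing ZNF165, and MKN45 cells with a control lentivirus. ZNF165 encodes a zinc-finger protein of the SCAN family, whose RNA in healthy tissue is found chiefly in testis. Cells of both control groups also carried a lentivirus, and the labels do not say whether a line is 1 clone, which vector or sequence was used, or whether replicates were separate cultures, so p-values cover no more than the scatter of these libraries, part of which may be technical. In the free-text descriptions, knockdown replicate 2 carries the name ZNF166 and replicate 3 ZNF167, but the genotype field gives ZNF165 for both and was followed.

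The proteasome is the protease that degrades proteins tagged with ubiquitin. Its core particle is a barrel of stacked rings, in which the outer alpha rings gate the entrance and the inner beta rings hold the active sites. The regulatory particle caps the barrel: its base contains a ring of ATPases that unfold substrates and push them into the core, and its lid removes ubiquitin. In mammals the genes of all these subunits can be induced together by NFE2L1, a transcription factor that is activated when proteasome activity falls short.

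Libraries held 12075813 to 19548445 counts. All 8 epithelial markers listed for a gastric line had at least 10 counts in all 12 libraries, while PTPRC, CD3E and DCN never had more than 3. Other genes on the list of markers of other cells were present: COL1A1 had 271 to 2090 counts, LYZ 0 to 4560 and ACTA2 4 to 282. The summed level of the epithelial markers was 14691 to 39677 CPM (counts scaled to library size) in knockdown libraries against 7344 to 7918 CPM in MKN28 controls, and the summed level of 12 markers of other cells was 27.5 to 48.9 CPM in knockdown libraries against 93.5 to 124 CPM in MKN28 controls. In MKN45 these sums were 5111 to 7945 CPM in overexpression libraries against 5539 to 9973 CPM in controls for epithelial markers, and 198 to 274 CPM in overexpression libraries against 134 to 170 CPM in controls for the others. The epithelial sum in the knockdown was carried by KRT8 (11.8-fold higher) and KRT18 (6.19-fold higher), while CDH1 fell (log2 −2.05, SE 0.46, adjusted p = 0.0075) and EPCAM had a log2 fold change of −0.03 (SE 0.59, adjusted p = 0.97). The part of these shifts in the subunit changes was not tested. ZNF165 itself was lower in the knockdown (log2 fold change −1.47, SE 0.53, adjusted p = 0.0459) and higher in the overexpression (3.09, SE 0.30, adjusted p = 0.0109), with no overlap between groups in either arm. The exact two-sided permutation p was 0.1 in each arm, the smallest that 3 libraries against 3 allow. The knockdown call of ZNF165 was kept without knockdown replicate 1 (adjusted p = 0.0116) and lost without any one of the other 5 libraries (adjusted p = 0.0604 to 0.173). Knockdown replicate 1 stood apart from the other two knockdown libraries, at a chi-square per degree of freedom of 417 and 253 against them, where those 2 libraries gave 60.1 between themselves. The marker CLDN4 showed the same split, at 3.60, 4049 and 2470 CPM in knockdown replicates 1, 2 and 3. Counts of changed subunits are therefore given with and without knockdown replicate 1.

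In MKN28 cells with ZNF165 knocked down, 14 of the 31 proteasome subunits rose and 0 fell in edgeR's quasi-likelihood test (adjusted p under 0.05 over 14939 genes), while 17 did not pass. Of all genes tested, 19.2% rose and 21.6% fell. The median log2 fold change of the subunits was 1.12, against −0.20 over all genes tested. The subunits that rose were 6 of 7 in the beta ring, 1 of 7 in the alpha ring, 4 of 9 in the base and 3 of 8 in the lid. Each knockdown library exceeded every control for 17 of the 31 subunits, where 23.5% of all genes behaved so, and 0 subunits lay below all controls in every knockdown library, where 30.3% of all genes did. In bulk RNA, a change in the RNA made per cell and a change in the share of cells that make it cannot be told apart.

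Taken as a share of all counts, the 31 subunits held 1.06%, 0.783% and 1.03% in the knockdown libraries (replicates 1 to 3), against 0.514%, 0.486% and 0.672% in MKN28 controls. All knockdown libraries lay above all controls. In MKN45 the share was 0.427%, 0.340% and 0.365% in overexpression libraries, against 0.377%, 0.484% and 0.400% in controls, and these groups overlapped.

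**Figure D1:**
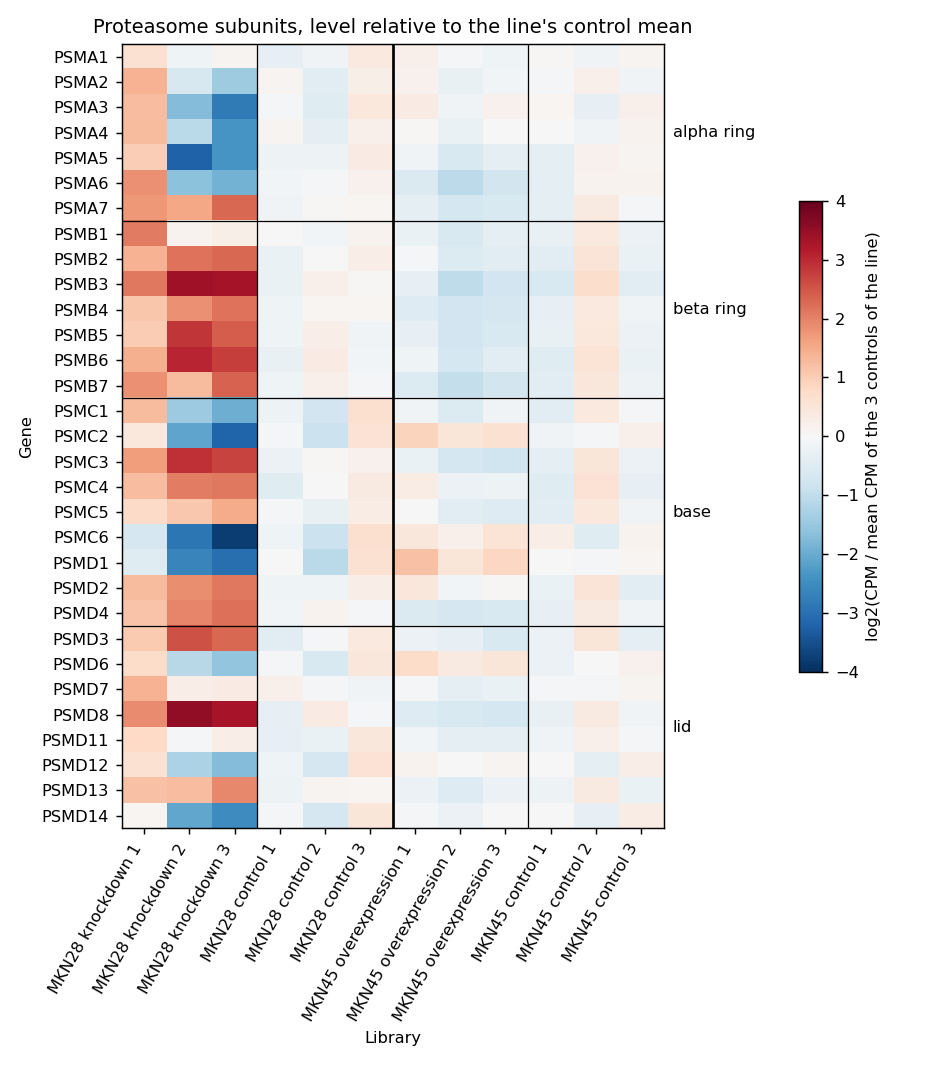
Level of each of the 31 subunits (rows, grouped by sub-complex) in each of the 12 libraries (columns), as the log2 of its CPM over the mean CPM of the 3 controls of the same line; red is above and blue below that mean. In knockdown replicate 1 the red extends to 29 of 31 subunits, whereas replicates 2 and 3 hold deep red and deep blue rows side by side, and the MKN45 columns are pale.

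All 7 members of the beta ring had a positive fold change in the knockdown, with a median log2 fold change of 2.01, and all 7 lay higher in each knockdown library than in any MKN28 control. The catalytic subunits were among those that rose. PSMB5, which cuts after hydrophobic residues, had 238, 862 and 629 CPM in knockdown libraries, against 106, 143 and 107 CPM in MKN28 controls. Its lowest knockdown value, that of replicate 1, was above its highest control value, and the fitted change was 4.87-fold (log2 2.28, SE 0.55, adjusted p = 0.00962). PSMB6, which cuts after acidic residues, had 266, 813 and 668 CPM in knockdown libraries, against 80.7, 123 and 91.8 CPM in MKN28 controls. It was 5.92-fold higher in the knockdown (log2 2.57, SE 0.53, adjusted p = 0.00589), again with the smallest excess in replicate 1. PSMB7, which cuts after basic residues, had 718, 481 and 1031 CPM in knockdown libraries, against 179, 231 and 194 CPM in MKN28 controls, a 3.69-fold rise (log2 1.88, SE 0.47, adjusted p = 0.0112). For PSMB7 the lowest knockdown library was replicate 2, so the 3 catalytic subunits did not share one order of libraries.

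The non-catalytic beta subunits held both ends of the ring's range. PSMB3 had 715, 1732 and 1673 CPM in knockdown libraries, against 137, 189 and 170 CPM in MKN28 controls, and was 8.31-fold higher (log2 3.06, SE 0.53, adjusted p = 0.00379). PSMB1 had the smallest change of the ring. It stood at 1041, 271 and 290 CPM in knockdown libraries, against 240, 227 and 269 CPM in MKN28 controls, so that replicate 1 alone was far above the controls while the other knockdown libraries barely cleared them (log2 1.12, SE 0.58, adjusted p = 0.14). PSMB2 (4.03-fold) and PSMB4 (3.39-fold) also rose.

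**Figure D2:**
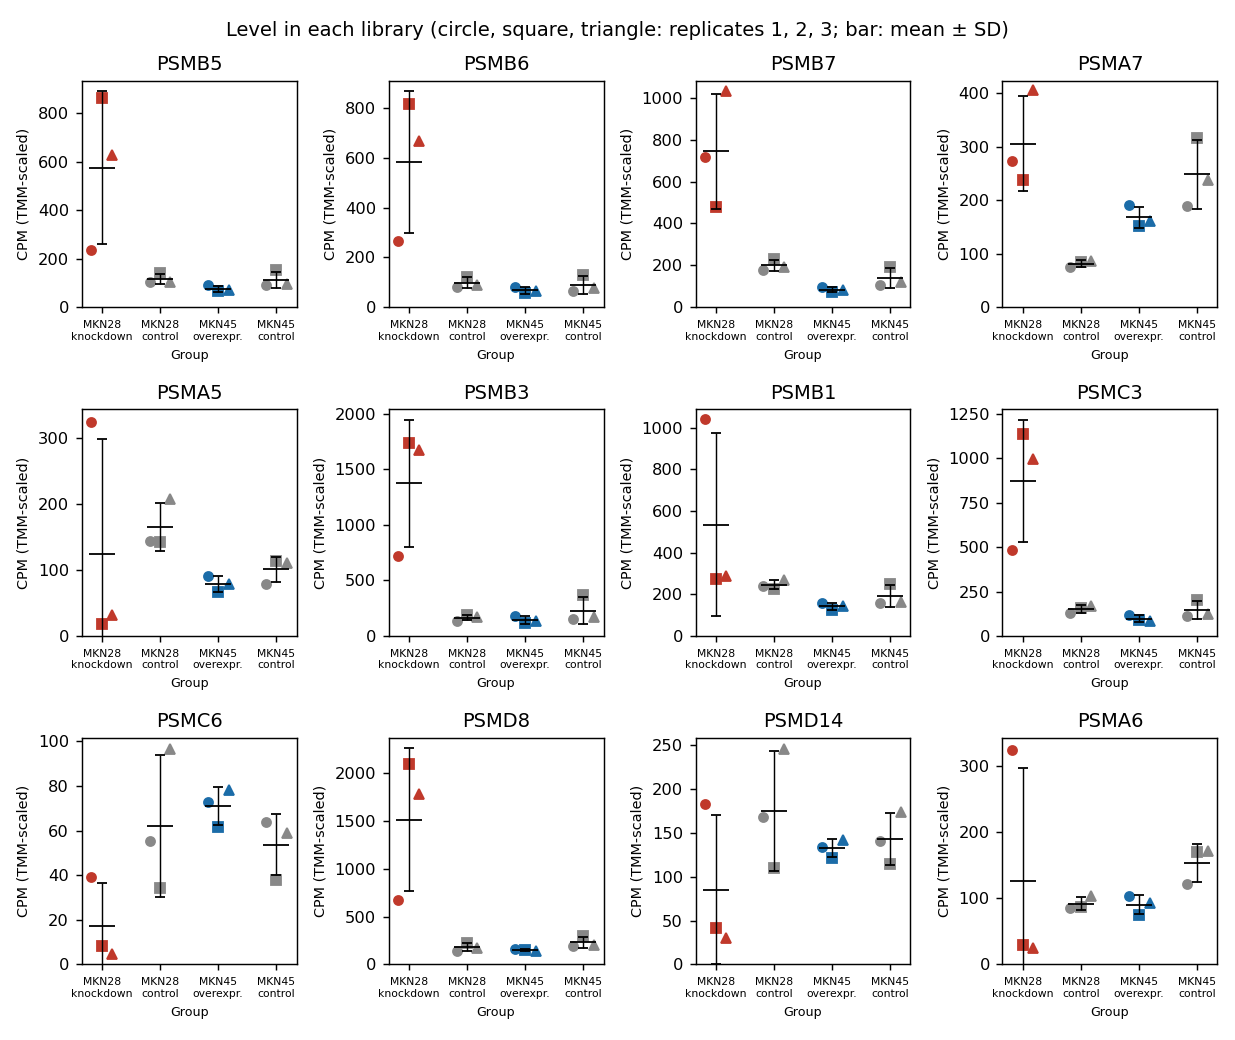
CPM (scaled by TMM, from 0 on a linear axis) of 12 named subunits in each library, by group, with the mean and SD of 3 libraries; an SD that would reach below 0 ends at the axis. PSMB3, PSMB5, PSMB6, PSMC3 and PSMD8 are high in all knockdown libraries and highest in replicates 2 and 3, while PSMA5, PSMA6 and PSMD14 are high or level in knockdown replicate 1 and low in replicates 2 and 3.

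The alpha ring, which shares its barrel with the beta ring, behaved differently from library to library. PSMA7 was the member that rose: it had 273, 238 and 406 CPM in knockdown libraries, against 74.6, 84.5 and 86.2 CPM in MKN28 controls, a 3.74-fold change (log2 1.90, SE 0.44, adjusted p = 0.00841). The other 6 members ranged from −0.40 to 0.46 in log2 fold change, with overlapping groups. PSMA5 had the lowest change of the ring, and its knockdown libraries lay on both sides of the controls. They held 325, 17.4 and 32.4 CPM, against 145, 143 and 207 CPM in MKN28 controls (log2 −0.40, SE 0.88, adjusted p = 0.738). PSMA6 showed the same split, with 324, 29.5 and 24.9 CPM in knockdown libraries against 84.6, 87.2 and 104 CPM in MKN28 controls. These values rest on ample reads: PSMA6 had 5044, 299 and 218 counts in the knockdown libraries. Relative to the control mean, the median alpha subunit stood at 2.43 in knockdown replicate 1 and at 0.469 and 0.272 in replicates 2 and 3, while the median beta subunit stood at 2.71, 4.50 and 5.12. The median of the alpha ring over the 3 libraries was a log2 fold change of 0.22 with TMM scaling and −0.46 with library totals alone, so its direction depends on the scaling, as does that of the lid (0.57 and −0.11).

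Among the base subunits, the ATPases divided. PSMC3, an ATPase of the unfolding ring, had 482, 1140 and 997 CPM in knockdown libraries, against 129, 157 and 170 CPM in MKN28 controls, and rose 5.74-fold (log2 2.52, SE 0.50, adjusted p = 0.00504). PSMC6, another ATPase of the same ring, had 39.2, 8.40 and 4.46 CPM in knockdown libraries, against 55.2, 34.2 and 96.6 CPM in MKN28 controls. Its replicate 1 lay within the controls and the other knockdown libraries lay below them (log2 −1.83, SE 0.78, adjusted p = 0.0816). PSMC4 rose 3.61-fold, and PSMC5 had a log2 fold change of 1.14 (SE 0.43, adjusted p = 0.0558) with all knockdown libraries above all controls. PSMC2 had a log2 fold change of −0.84 (SE 0.81, adjusted p = 0.427), with 149, 25.8 and 12.02 CPM in knockdown libraries against 107, 61.4 and 166 CPM in MKN28 controls. The scaffold PSMD2 (3.45-fold) and the ubiquitin receptor PSMD4 (3.58-fold) rose, whereas the companion scaffold PSMD1 had a log2 fold change of −1.59 (SE 0.71, adjusted p = 0.0968). PSMC1 is uncertain, because its processed pseudogene PSMC1P1 held 19041 counts over all libraries against 5642 for PSMC1 itself, and the authors' counting could split reads between them. Several other subunits overlap a neighbouring gene, which had over 300 counts in some library for PSMA2, PSMA3, PSMA6, PSMC2, PSMC5 and PSMD13 and likewise for PSMC1, and at most 130 for the others that have one. Since the strand setting of the counting is not given in the sources used here, reads of such neighbours cannot be told apart. For PSMA2 and PSMA6 a neighbour lies on the same strand (AC010132.3, up to 1221 counts, and AL121594.1, up to 444). No strand setting would part their reads. PSMA6 also has a pseudogene, PSMA6P1, with 2129 counts over all libraries against 24404 for PSMA6 itself.

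In the lid, PSMD8 rose most. It had 669, 2093 and 1781 CPM in knockdown libraries, against 143, 223 and 172 CPM in MKN28 controls, an 8.43-fold change (log2 3.08, SE 0.56, adjusted p = 0.00428). PSMD3 (4.28-fold) and PSMD13 (2.81-fold) also rose. PSMD14, the enzyme that removes ubiquitin chains, had the lowest change of the lid, with 183, 41.7 and 30.3 CPM in knockdown libraries against 169, 110 and 246 CPM in MKN28 controls (log2 −1.04, SE 0.68, adjusted p = 0.24). Its replicate 1 lay among the controls and the other 2 knockdown libraries lay below all of them. PSMD7, the partner of PSMD14, had a log2 fold change of 0.76 (SE 0.46, adjusted p = 0.208) with no overlap between groups.

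Without knockdown replicate 1, 15 subunits rose and 11 fell, where 28.3% of all genes rose and 37.5% fell, so that the share of subunits that fell was near that of all genes. All 14 that rose over the 3 libraries were among the 15, joined by PSMC5, and those that fell were PSMA3, PSMA4, PSMA5, PSMA6, PSMC1, PSMC2, PSMC6, PSMD1, PSMD6, PSMD12 and PSMD14. With knockdown replicate 1 as the lone knockdown library, assumed to vary like the others, 12 subunits rose and 0 fell, where 9.40% and 10.6% of all genes did; of the 12, 8 were among the 14, and PSMA2, PSMA6, PSMB1 and PSMD7 were added. Leaving out control replicate 1 brought the count of risen subunits to 4, control replicate 3 to 8, and knockdown replicate 3 to 9, where 6.67%, 8.37% and 13.3% of all genes rose. PSMB3, PSMB6, PSMC3 and PSMD8 passed with each of the 6 libraries left out in turn, with knockdown replicate 1 alone, and under every scaling. With library totals in place of TMM factors, 7 subunits rose, where 8.77% of all genes did; the median over all genes then moved to −0.92 and that of the subunits to 0.31.

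The subunits that rose and those that did not differed in base composition, which the sequences of 2 subunits from each end show. PSMB3 (chr17:38752736-38764231, plus strand) and PSMD8 (chr19:38374536-38383824, plus strand) were the most risen subunits of the core and of the regulatory particle, and PSMC6 (chr14:52707172-52728587, plus strand) and PSMD14 (chr2:161308038-161411717, plus strand) had the lowest values of the base and the lid. Coordinates are GRCh38 in GENCODE 29. Each line gives the 120 coding bases, in frame, whose GC content is nearest to that of the whole coding sequence, with G and C in capitals.
PSMB3: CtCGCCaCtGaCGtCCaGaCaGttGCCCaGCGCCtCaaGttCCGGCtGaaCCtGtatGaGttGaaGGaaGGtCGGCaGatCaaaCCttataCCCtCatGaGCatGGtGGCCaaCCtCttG
PSMD8: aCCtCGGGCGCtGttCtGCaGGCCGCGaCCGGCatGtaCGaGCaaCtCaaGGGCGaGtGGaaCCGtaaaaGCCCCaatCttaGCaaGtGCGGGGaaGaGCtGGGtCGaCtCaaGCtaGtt
PSMC6: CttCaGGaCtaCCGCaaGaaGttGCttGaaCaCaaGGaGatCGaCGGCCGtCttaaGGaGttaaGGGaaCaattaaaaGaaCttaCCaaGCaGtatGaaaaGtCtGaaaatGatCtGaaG
PSMD14: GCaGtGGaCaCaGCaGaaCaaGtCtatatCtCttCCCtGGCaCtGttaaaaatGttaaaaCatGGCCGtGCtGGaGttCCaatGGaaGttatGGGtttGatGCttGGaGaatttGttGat

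The GC content of the whole coding sequence was 55.0% in PSMB3 and 59.4% in PSMD8, against 41.6% in PSMC6 and 42.6% in PSMD14. Over the 14 subunits that rose it ran from 49.6% to 59.4% (median 54.9%), and over the 17 that did not pass it ran from 40.1% to 51.6% (median 43.7%). Across the 31 subunits the Spearman correlation of the knockdown log2 fold change with coding GC content was 0.888, with GC content of the whole transcript 0.851, and with transcript length −0.440; the subunits share the same 6 libraries and are not independent, so no p is given. The sub-complexes differ in this property as well: the median coding GC content was 42.8% in the alpha ring, 54.8% in the beta ring, 51.6% in the base and 47.8% in the lid. PSMA7, the alpha subunit that rose, has a coding GC content of 52.2%, and PSMB1, the beta subunit that did not pass, has 47.7%.

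**Figure D3:**
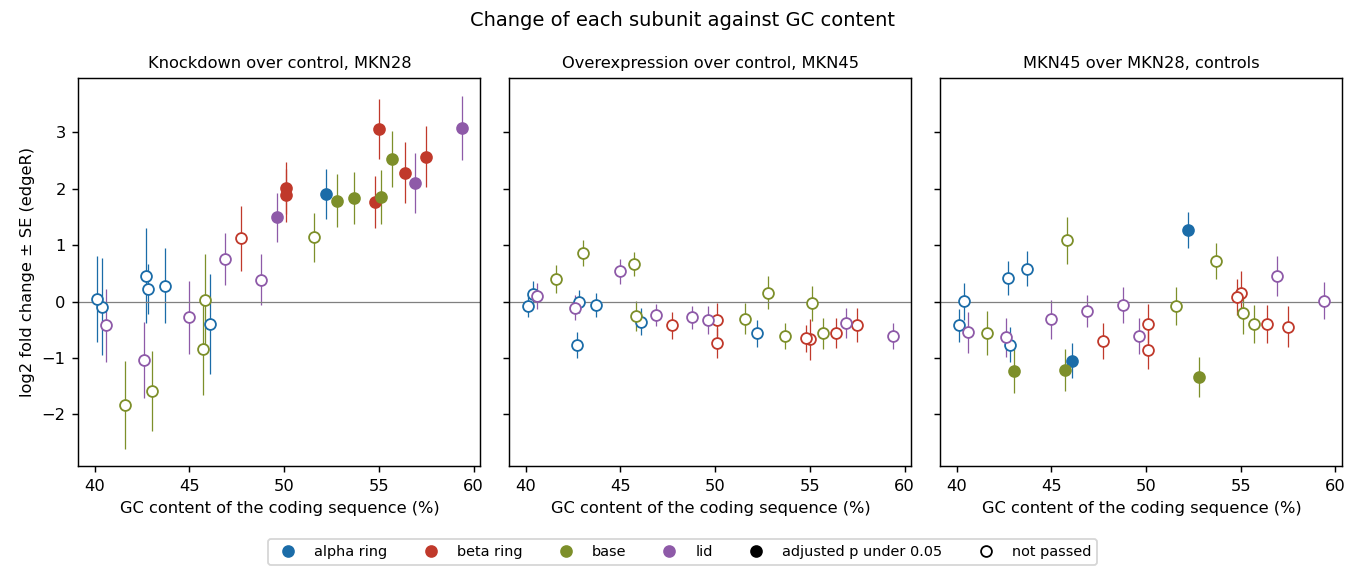
Log2 fold change (with SE, edgeR) of each subunit against the GC content of its coding sequence in percent, for the knockdown, the overexpression and the control lines; colours mark sub-complexes and filled points an adjusted p under 0.05. In the knockdown panel the filled points all lie at 49.6% GC or above, in the overexpression panel no point is filled, and in the line panel the 5 filled points lie between 43.0% and 52.8% GC.

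Genes at large moved with GC content in the same libraries. The 14864 tested genes with a known GC content were split into 4 equal bins of transcript GC content, and in the knockdown 2.96%, 8.75%, 28.96% and 36.3% of genes rose from the lowest to the highest bin, and 42.7%, 24.5%, 12.8% and 6.19% fell. The subunits that rose were 0 of 7, 1 of 10, 12 of 13 and 1 of 1 in these bins. Within single libraries, the Spearman correlation over all genes between the log2 difference from the control mean and GC content was 0.18, 0.64 and 0.61 in the knockdown libraries, against −0.34, 0.62 and −0.55 in the MKN28 controls. With the trend on length and GC content removed in each library, 15 subunits rose and 1, PSMC6, fell. Of the 14, 11 still passed. PSMA7, PSMB4 and PSMC4 no longer did, and PSMA4, PSMD7, PSMD11 and PSMD12 were added. In that fit 23.9% of all genes rose and 17.5% fell. PSMB2 had its highest value, at 8.18-fold (adjusted p = 0.0021) against 4.03-fold without the removal, PSMD2 was 3.40-fold higher (adjusted p = 0.00238) and PSMD12 2.99-fold (adjusted p = 0.00193). PSMD8 was 3.33-fold higher in the knockdown (adjusted p = 0.002), PSMB3 3.00-fold (adjusted p = 0.00351), PSMC3 2.48-fold (adjusted p = 0.00516), PSMB5 2.69-fold (adjusted p = 0.0201), PSMB7 2.12-fold (adjusted p = 0.0173) and PSMB6 1.98-fold (adjusted p = 0.0202).

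Subunits of one complex lay further apart in the knockdown libraries than in any other. The SD of the log2 ratio to the control mean over the 31 subunits was 0.66, 2.04 and 2.32 in knockdown replicates 1, 2 and 3, against 0.15, 0.38 and 0.24 in MKN28 controls. Each control is part of the mean it is set against, which lowers the SD of controls. The same SD over all genes was not taken, so these values do not show a spread particular to the subunits. In MKN45 the SD was 0.433, 0.405 and 0.435 in overexpression libraries, against 0.203, 0.321 and 0.216 in controls. Levels of different genes were compared per kilobase of coding sequence, leaving out PSMC1. On that scale the highest subunit was 44.3, 406 and 737 times the lowest in the knockdown libraries, against 8.74, 12.6 and 7.32 times in MKN28 controls. PSMC6 was the lowest in all 3 knockdown libraries, at 32.5, 6.95 and 3.69 CPM per kilobase, and PSMD6, a lid subunit, was the lowest in all 3 controls. PSMB3 was the highest in knockdown replicates 2 and 3, at 2816 and 2721 CPM per kilobase, while PSMB1 was the highest in knockdown replicate 1 at 1439. In MKN45 the same ratio was 5.21, 4.80 and 4.29 in overexpression libraries, against 7.83, 19.2 and 9.08 in controls. These ranks and ratios depend on the length used. Whole transcripts exceed the coding sequence to different extents, with 4406 against 1368 bases for PSMD12 and 773 against 615 for PSMB3.

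**Figure D4:**
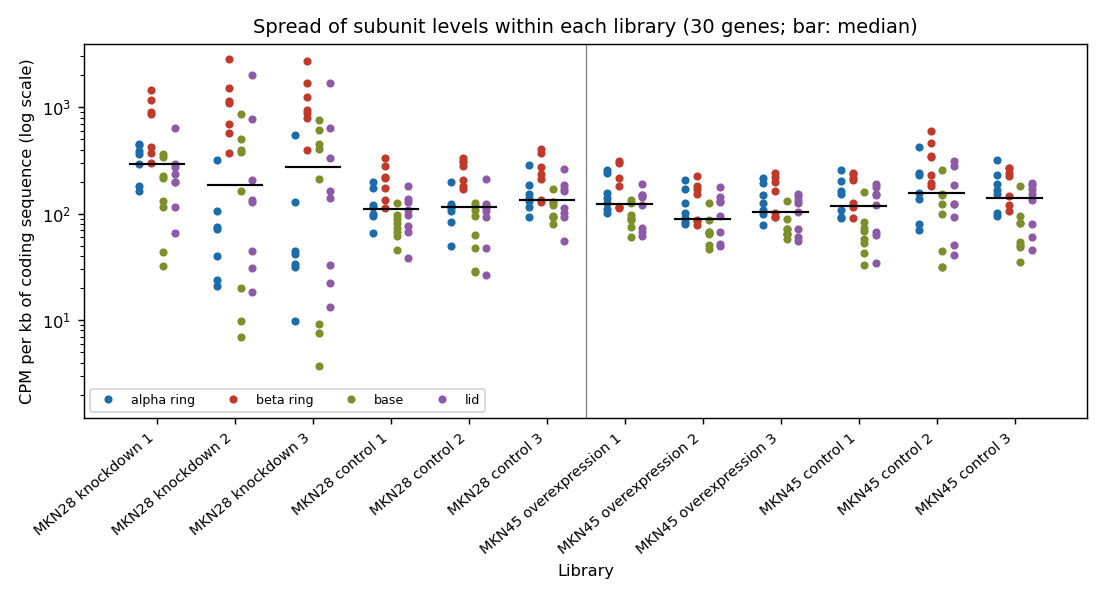
Level of 30 subunits (PSMC1 left out) in each library as CPM per kilobase of coding sequence, on a log axis, with the median as a bar. The column of points is tallest in knockdown replicates 2 and 3, where the ratio of highest to lowest is 406 and 737, and shortest in the overexpression libraries, where it is 4.29 to 5.21.

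In MKN45 cells overexpressing ZNF165, 0 of 31 subunits passed the test in edgeR, with adjusted p from 0.0774 to 0.999. At an unadjusted p under 0.05, 3 subunits were higher and 6 lower, where 13.3% and 13.4% of all genes were; DESeq2, which called 6.56% and 5.03% of all genes, called 1 higher (PSMD1, adjusted p = 0.0186) and 1 lower (PSMA6, adjusted p = 0.0418). Of all 15833 genes tested, 0.935% rose and 0.196% fell, 1.13% in all. The median log2 fold change of the subunits was −0.30, against −0.002 over all genes tested, with 24 negative and 7 positive values. Leaving out each library in turn also gave 0 calls, where 0.00621% to 5.14% of all genes were higher and 0% to 3.12% lower.

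The beta ring was negative for all 7 members under TMM, upper-quartile and total-count scaling alike, though no member passed. With TMM the values ran from −0.73 to −0.32. The sign of the least negative members was not kept throughout: PSMB2 was at 0.03 without MKN45 control replicate 2, and PSMB6 at 0.02 with the trend on length and GC content removed. PSMB7 had the lowest value of the ring, with 96.3, 73.1 and 83.9 CPM in overexpression libraries against 105, 193 and 122 CPM in MKN45 controls (log2 −0.73, SE 0.27, adjusted p = 0.137). Its groups did not overlap, and control replicate 2 was the highest of all. PSMB2 was the least negative, with 189, 135 and 145 CPM in overexpression libraries against 143, 279 and 163 CPM in MKN45 controls (log2 −0.32, SE 0.29, adjusted p = 0.491). PSMB5 had 90.8, 66.7 and 73.9 CPM in overexpression libraries against 91.4, 153 and 95.4 CPM in MKN45 controls (log2 −0.55, SE 0.26, adjusted p = 0.209). PSMB6 had 81.0, 56.0 and 67.5 CPM in overexpression libraries against 64.8, 131 and 76.0 CPM in MKN45 controls (log2 −0.41, SE 0.30, adjusted p = 0.396). In both, control replicate 2 stood well above every other library of the line.

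In the alpha ring PSMA6 was lowest. It had 103, 74.1 and 93.5 CPM in overexpression libraries against 121, 170 and 171 CPM in MKN45 controls, with no overlap (log2 −0.77, SE 0.23, adjusted p = 0.0955). PSMA3 was the highest of the ring at a log2 fold change of 0.13 (SE 0.23, adjusted p = 0.738), with 83.9, 61.5 and 76.5 CPM in overexpression libraries and 70.8, 54.2 and 77.7 CPM in MKN45 controls.

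In the base PSMD1 had the largest value in either direction. It stood at 214, 133 and 167 CPM in overexpression libraries against 93.3, 89.8 and 100 CPM in MKN45 controls, with no overlap (log2 0.86, SE 0.23, adjusted p = 0.0774). PSMD4 was the lowest of the base, with 151, 143 and 149 CPM in overexpression libraries against 182, 290 and 207 CPM in MKN45 controls (log2 −0.62, SE 0.23, adjusted p = 0.138). In the lid PSMD6 had 78.7, 60.7 and 65.3 CPM in overexpression libraries against 40.5, 47.4 and 53.6 CPM in MKN45 controls (log2 0.53, SE 0.22, adjusted p = 0.165). PSMD8 had 159, 152 and 142 CPM in overexpression libraries against 188, 294 and 206 CPM in MKN45 controls (log2 −0.61, SE 0.23, adjusted p = 0.142). All overexpression libraries were on one side of all controls for 10 subunits, 3 higher (PSMC2, PSMD1, PSMD6) and 7 lower (PSMA6, PSMB4, PSMB5, PSMB7, PSMD4, PSMD7, PSMD8), where 19.4% of all genes were higher and 18.7% lower in that sense.

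In this arm the Spearman correlation of the log2 fold change with coding GC content was −0.581 over the 31 subunits, and the knockdown and overexpression fold changes, which share no library, had a Spearman correlation of −0.710 over the same subunits. GC content also separated the MKN45 controls: its Spearman correlation over all genes with the difference from the control mean was 0.69 in control replicate 2, against −0.56 and −0.48 in control replicates 1 and 3, and −0.38, −0.41 and −0.51 in the overexpression libraries. The part of GC content in the correlation between the arms was not tested.

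The effects of the 2 manipulations were set against each other in one fit of all 12 libraries, as the knockdown change minus the overexpression change. The difference was positive and past the threshold for 15 subunits and negative for 1, where 19.9% and 23.0% of 17266 genes were positive and negative, 42.9% in all. Its median was 1.53 over the subunits and −0.23 over all genes. The 15 were 6 of the beta ring, PSMA7, 5 of the base and 3 of the lid, led by PSMB3 (3.79, SE 0.63, adjusted p = 0.000659) and PSMD8 (3.75, SE 0.60, adjusted p = 0.000544). The catalytic subunits PSMB5, PSMB6 and PSMB7 had differences of 2.90, 3.04 and 2.68 with adjusted p of 0.00226, 0.00178 and 0.00142. The negative one was PSMD1 (−2.37, SE 0.79, adjusted p = 0.0256). The count of negative differences was 11 without knockdown replicate 1, where 34.4% of all genes were negative. It was 2 without MKN28 control replicate 2, where 22.9% of all genes were negative. It was 0 without MKN28 control replicate 1 or 3, knockdown replicate 2 or 3, MKN45 control replicate 2 or 3, or overexpression replicate 1. In the fits with 0, 18.6% to 19.8% of all genes were negative.

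Between the lines, with controls alone, few subunits differed: PSMA7 was higher in MKN45 than in MKN28, and PSMA5, PSMC2, PSMD1 and PSMD2 were lower, so that 1 of 31 was higher and 4 were lower. Of all 16088 genes tested, 21.4% were higher and 20.4% lower. The median log2 fold change, MKN45 over MKN28, was −0.39 for the subunits and −0.04 over all genes. This comparison shares the MKN28 controls with the knockdown and the MKN45 controls with the overexpression, and line cannot be told apart from anything else that differed between the lines' libraries. Same-numbered controls of the lines deviated together, but replicates 1 and 3 also did so across numbers, so a pairing by number is not settled. A fit blocked on that number had 3 subunits higher (PSMC1 and PSMD4 added) and 9 lower (PSMA1, PSMB1, PSMB7, PSMD13 and PSMD14 added). In the blocked fit 27.1% and 28.5% of all genes were higher and lower. The values below are from the fit without the block.

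PSMA7 had 187, 336 and 232 CPM in MKN45 controls against 95.0, 110 and 108 CPM in MKN28 controls (log2 1.27, SE 0.32, adjusted p = 0.00678). PSMA5 had 77.5, 121 and 107 CPM in MKN45 controls against 185, 186 and 261 CPM in MKN28 controls (log2 −1.04, SE 0.32, adjusted p = 0.0189). The 2 alpha subunits thus lay on opposite sides, each without overlap between the lines. In all, 3 subunits lay higher in every MKN45 control than in any MKN28 control and 7 lay lower, where 26.9% and 25.4% of all genes did. PSMD2, the scaffold of the base, had 156, 287 and 135 CPM in MKN45 controls against 433, 443 and 582 CPM in MKN28 controls (log2 −1.33, SE 0.35, adjusted p = 0.0092). PSMD1 had 92.0, 95.0 and 98.0 CPM in MKN45 controls against 223, 108 and 337 CPM in MKN28 controls (log2 −1.23, SE 0.39, adjusted p = 0.0231). The MKN45 values of PSMD1 were nearly alike while the MKN28 values were scattered, as they were for PSMC2 (log2 −1.21, SE 0.37, adjusted p = 0.0201).

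The remaining subunits at the ends of each sub-complex did not pass without the block; with it PSMB7 (adjusted p = 0.00453), PSMC1 (adjusted p = 0.0279) and PSMD14 (adjusted p = 0.0337) did. PSMB7 had 103, 204 and 119 CPM in MKN45 controls against 228, 299 and 244 CPM in MKN28 controls (log2 −0.85, SE 0.34, adjusted p = 0.0587). PSMB3 had 148, 391.6 and 161 CPM in MKN45 controls against 174, 245 and 214 CPM in MKN28 controls (log2 0.15, SE 0.39, adjusted p = 0.791). The catalytic subunits PSMB5 and PSMB6 had log2 fold changes of −0.40 (SE 0.33, adjusted p = 0.367) and −0.45 (SE 0.36, adjusted p = 0.348). PSMC1, uncertain for its pseudogene, had 29.8, 57.4 and 38.2 CPM in MKN45 controls against 17.1, 11.8 and 30.2 CPM in MKN28 controls, which overlap (log2 1.08, SE 0.42, adjusted p = 0.0531). In the lid PSMD3 was highest at 0.45 (SE 0.35, adjusted p = 0.329), with 301, 527 and 265 CPM in MKN45 controls and 198, 258 and 343 CPM in MKN28 controls. PSMD14 was lowest at −0.63 (SE 0.34, adjusted p = 0.158), with 139, 121 and 170 CPM in MKN45 controls and 215, 143 and 309 CPM in MKN28 controls.

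Single libraries decided most of these calls. Leaving out MKN45 control replicate 3, PSMA7 was the call left, where 17.3% of all genes were higher and 14.7% lower. PSMC2 and PSMD1 were lost without MKN28 control replicate 1, and PSMA5, PSMC2 and PSMD1 without MKN28 control replicate 3 or without MKN45 control replicate 1, where in both cases PSMC1 was added as higher. Without MKN28 control replicate 2, PSMD4 was added as higher, and without MKN45 control replicate 2, PSMB1, PSMB7 and PSMD13 were added as lower. With 1 library left out, 16.5% to 24.4% of all genes were higher and 14.1% to 20.2% lower, so the share over all genes moved as well. With the trend on length and GC content removed, 2 subunits were higher and 16 lower, where 23.3% and 31.2% of all genes were.

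**Figure D5:**
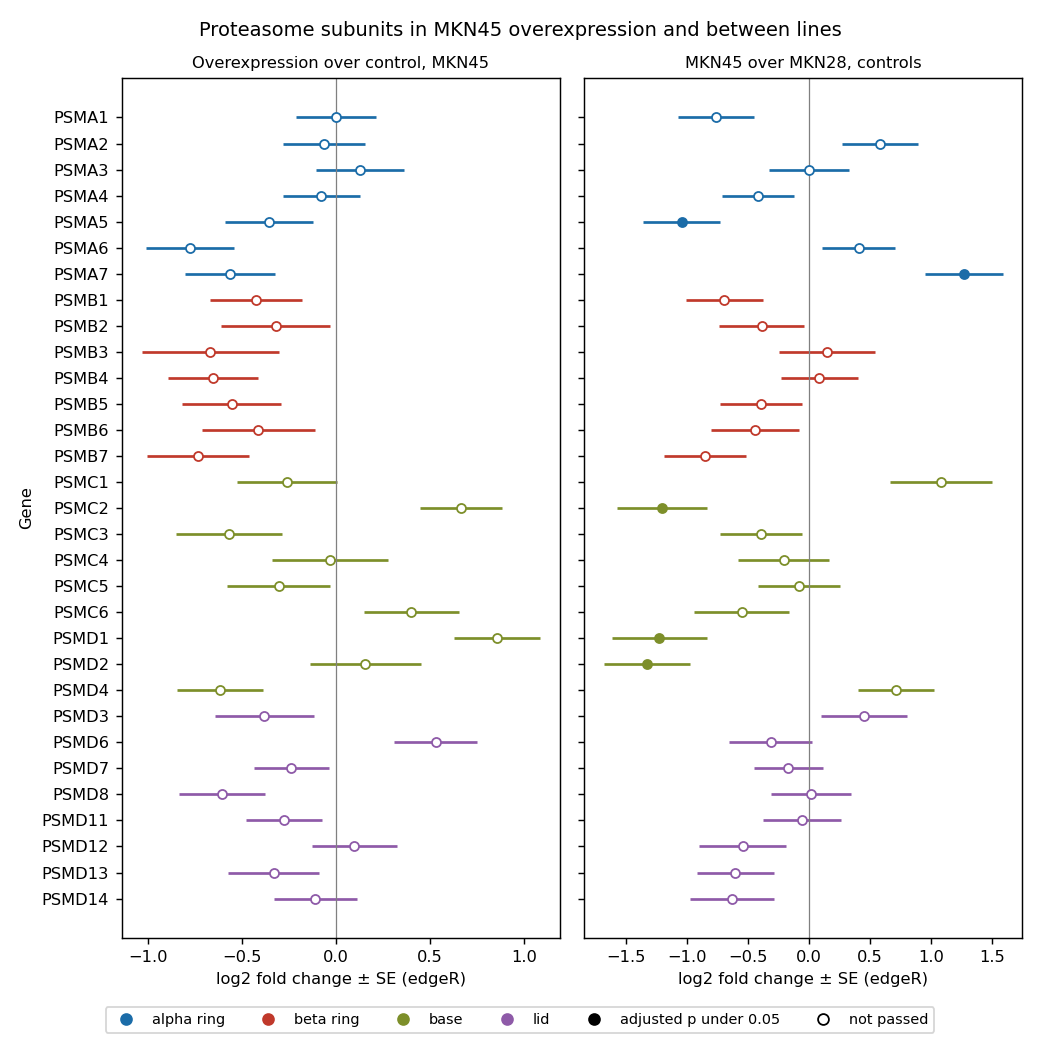
Log2 fold change with SE (edgeR) of each of the 31 subunits for the overexpression over its control in MKN45 (left) and for MKN45 over MKN28 controls (right); filled points have an adjusted p under 0.05. No point is filled on the left, where the values run from −0.77 to 0.86, and 5 are filled on the right: PSMA7 above 0 and PSMA5, PSMC2, PSMD1 and PSMD2 below it.

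Of 44 other genes of the pathway, 41 could be tested in the knockdown, of which 11 rose (26.8%), 8 fell (19.5%) and 22 did not pass. These shares lie near the 19.2% and 21.6% of all genes; the median log2 fold change of the 41 was 0.65. In the overexpression 0 of 42 passed in edgeR; at an unadjusted p under 0.05, 4 were higher and 14 lower there, where 13.3% and 13.4% of all genes were. DESeq2 called 2 higher (PSME3, PSME4) and 5 lower (MAFK, PSMB8, PSMB9, PSMB10, RPS27A), against 6.56% and 5.03% of all genes. Between the lines 7 of 42 were higher and 8 lower in MKN45, near the 21.4% and 20.4% of all genes, and 12 and 14 in the blocked fit, where 27.1% and 28.5% of all genes were. In the knockdown the count was 20 higher and 14 lower if knockdown replicate 1 was left out, 7 and 4 if control replicate 1 was, 7 and 3 if control replicate 3 was, and 6 and 9 with library totals alone. The shares of all genes, in the same order, were 28.3% and 37.5%, 6.67% and 10.6%, 8.37% and 12.2%, and 8.77% and 26.1%. ADRM1, PSMB10, PSMD9, PSMG3 and PSMG4 rose and DDI2, PSME4 and UBA6 fell with each library left out in turn and with library totals alone. With the trend on length and GC content removed, 15 of the 41 rose and 3 (DDI2, PSME3 and PSME4) fell. In that fit 23.9% of all genes rose and 17.5% fell. UBA6 then no longer passed, nor did the rise of PSMB9 given below. The immunoproteasome subunits, which replace the catalytic ones in immune and interferon-treated cells, differed in level in MKN28, where PSMB8 and PSMB9 were close to silent in controls and PSMB10 was not. PSMB8 had 5, 15 and 13 counts in knockdown libraries and 1, 0 and 0 in MKN28 controls, too few to be tested there, against 1448 to 1636 counts in overexpression libraries and 1937 to 2268 in MKN45 controls. PSMB9 rose in the knockdown (log2 2.32, SE 0.70, adjusted p = 0.0244) but stayed low, with 2.06, 6.12 and 6.41 CPM in knockdown libraries against 0.496, 1.70 and 0.693 CPM in MKN28 controls. PSMB10 rose 7.82-fold (adjusted p = 0.00806), with 21.1, 109 and 67.6 CPM in knockdown libraries against 6.41, 13.1 and 5.68 CPM in MKN28 controls. All 3 immunoproteasome subunits were higher in MKN45 than in MKN28 controls. The tissue-restricted subunits PSMA8 and PSMB11 had 0 counts in all libraries. By library totals alone, this allows a level of up to 0.153 to 0.248 CPM (3 counts) in a library.

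Of the activators that open the core, PSME1 rose 2.63-fold in the knockdown (adjusted p = 0.04) and PSME4 fell (log2 −3.86, SE 0.73, adjusted p = 0.00456), with 25.0, 6.12 and 5.15 CPM in knockdown libraries against 175, 101 and 254 CPM in MKN28 controls. PSME2 and PSME3 did not pass, and the inhibitor PSMF1 rose 3.75-fold (adjusted p = 0.0124). Among 9 assembly chaperones, PSMG3 (8.23-fold), PSMG4 (8.02-fold) and PSMD9 (6.30-fold) rose, PAAF1 fell (log2 −1.63, adjusted p = 0.0308) and 5 did not pass. PSMG3 and PSMG4 pair with each other to build the alpha ring. POMP, which starts the beta ring, had a log2 fold change of 1.32 (SE 0.53, adjusted p = 0.0692). Of 6 factors that bind the regulatory particle, the ubiquitin receptor ADRM1 rose 8.44-fold (adjusted p = 0.00456). UCHL5, the deubiquitinase that ADRM1 recruits, fell (log2 −2.08, SE 0.55, adjusted p = 0.0141) together with ECPAS (log2 −2.36, SE 0.58, adjusted p = 0.0107). With the trend on length and GC content removed, PSME1, PAAF1, UCHL5 and ECPAS no longer passed. PSME4, PSMF1, PSMG3, PSMG4, PSMD9 and ADRM1 still did, and PSME3 passed as lower and POMP as higher.

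Of 7 genes of transcription control, 1 rose and 3 fell in the knockdown. NFE2L1 had 393, 550 and 723 CPM in knockdown libraries against 225, 367 and 316 CPM in MKN28 controls, without overlap (log2 0.88, SE 0.45, adjusted p = 0.142). DDI2, the protease that releases NFE2L1 in its active form, fell: it had 137, 5 and 13 counts in knockdown libraries against 2267, 940 and 2301 in MKN28 controls (log2 −4.41, SE 0.95, adjusted p = 0.00672). MAFG, a partner that binds DNA with it, rose 3.07-fold (adjusted p = 0.0128). NFE2L2 (log2 −1.66, adjusted p = 0.0464) and BACH1 (log2 −1.99, adjusted p = 0.0153), factors of the oxidative stress response, fell. Among the genes that supply substrates, the ubiquitin fusion gene RPS27A rose 2.97-fold (adjusted p = 0.0207), the E1 enzyme UBA6 fell (log2 −3.49, SE 0.72, adjusted p = 0.00569), and UBB and VCP were among those that did not pass. With the trend on length and GC content removed, NFE2L2, BACH1 and UBA6 no longer passed. DDI2, MAFG and RPS27A still did, and NFE2L1 and VCP passed as higher.

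Promoters were searched for 2 motifs in windows of 250 bases before to 50 after the gene start (RefSeq, GRCh38.p14), which were on hand for 26 of the 31 subunits, including 10 of the 14 that rose. The antioxidant response element, TGACNNNGC on either strand, through which NFE2L1 and NFE2L2 act, was present in 7 of 26 subunits (26.9%) against 16.1% of genes with a window, in 3 of the 10 that rose and 4 of the 16 others. CCAAT, bound by NF-Y, was present in 15 of 26 (57.7%) against 39.7% of genes, in 6 of the 10 and 9 of the 16. The elements of a subunit that rose and of one that did not pass are shown with the match in capitals and 50 bases on each side. PSMB3 holds it 104 bases before the gene start on the plus strand (chr17:38752587-38752695) and PSMD12, a lid subunit with a log2 fold change of −0.42 (SE 0.65, adjusted p = 0.624), 165 bases before it on the minus strand (chr17:67366684-67366792).
PSMB3 promoter: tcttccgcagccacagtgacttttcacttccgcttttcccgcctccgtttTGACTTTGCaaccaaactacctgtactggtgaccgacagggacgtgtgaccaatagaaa
PSMD12 promoter: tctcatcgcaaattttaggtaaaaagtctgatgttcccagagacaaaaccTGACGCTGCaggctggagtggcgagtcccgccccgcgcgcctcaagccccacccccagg
A match is a description of the letters and does not show that a factor binds there.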

How the data were processed

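RNA-seq of 12 libraries was deposited as 1 table of gene counts; the deposited values are whole-number counts, not normalized. HISAT2 and StringTie are named in the submitters' processing notes; versions, build, annotation and strandedness of the counting were not given in the sources used here. Identifiers were matched to GENCODE 29 (50111 of 50868), from which lengths and GC content were taken.

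Counts were tested with edgeR 4.0.16 (R 4.3.3): TMM factors, filterByExpr (minimum count 10, total 15), the quasi-likelihood test, and Benjamini-Hochberg adjustment over all genes tested, with a threshold of 0.05. The knockdown, overexpression and line comparisons were each fitted on their own 6 libraries, and the difference between arms on all 12. CPM are scaled within each comparison, so a control library has different CPM in 2 comparisons. MKN28 controls have clearly lower CPM in the knockdown comparison than in the line comparison. CPM of single genes are therefore to be compared only within a comparison. A floor of 3 counts equals 0.153 to 0.248 CPM by library totals, without TMM factors, and covers counting error only. Alternatives were upper-quartile factors, library totals alone, DESeq2 1.42.0, no filter, the replicate number as a block, removal of a per-library spline trend (4 degrees of freedom) on length and GC content, leaving out each library, knockdown replicate 1 alone, and 1 fit of all libraries. The fit was tested on simulated data. In the line comparison the deviations of same-numbered controls correlated at 0.264, 0.507 and 0.281. MKN45 replicate 1 with MKN28 replicate 3 correlated at 0.275, and MKN45 replicate 3 with MKN28 replicate 1 at 0.15. Replicate 2 of either line correlated with replicates 1 and 3 of the other at −0.394 to −0.297. Whether the numbers, taken from the labels, pair the samples there cannot be told from these values. The values printed are from the fit without the block, and the blocked ones stand beside them where they change a call.

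Per-library values are given for the catalytic subunits and, in each of the 4 sub-complexes, for the members with the highest and lowest fold change in each comparison; others are named where they passed the test, or where their values were seen to differ between libraries (PSMA6, PSMC2, PSMC5, PSMD7). The members and lists were chosen with earlier results of these data known. A few genes of the marker and pathway lists are not reported here by name, though the lists' counts include them.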

Additional observations from a re-analysis of the deposited data

How the results depend on the processing

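The knockdown gave 7 risen subunits with library totals alone and 4 to 15 with 1 library left out, where 8.77% and 6.67% to 28.3% of all genes rose. Other settings stayed within 1.5 times of 14. Fallen subunits numbered 1 with DESeq2, with no filter, with the length and GC trend removed and with that and the replicate block together, 5 with the replicate block, 2 in the fit of all libraries and 0 to 11 with 1 left out. The share of all genes that fell was 24.1% with DESeq2, 13.9% with no filter, 17.5% with the trend removed and 16.2% with both. It was 27.3% with the block, 27.0% in the fit of all libraries and 10.6% to 37.5% with 1 left out. ZNF165 missed the threshold in the knockdown with no filter (−1.54), the replicate block (−1.481), the trend removed (−1.01), both together (−1.05) and knockdown replicate 1 alone (−1.09), and ranged from −1.63 to −1.23 with 1 library left out. In the overexpression DESeq2 called 1 higher and 1 lower, where 6.56% and 5.03% of all genes were. Leaving out 1 library gave 0 in each direction. ZNF165 then ranged from 2.88 to 3.45, and it missed the threshold without overexpression replicate 1 or replicate 2.

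Between the lines, higher subunits numbered 3 with upper-quartile factors and with the replicate block, 2 with DESeq2, with no filter, with the trend removed and with both together, and 1 to 2 with 1 library left out. Over these settings the share of all genes that were higher ran from 14.2% with no filter to 27.1% with the block. Lower subunits numbered 8 with library totals, 9 with the block, 16 with the trend removed, 20 with both, 1 in the fit of all libraries and 0 to 7 with 1 left out. The shares of all genes, in the same order, were 22.0%, 28.5%, 31.2%, 32.5%, 16.3% and 14.1% to 20.2%. ZNF165 ranged from −0.42 to 0.10 with 1 library left out. In the difference between arms, negative calls numbered 2 with DESeq2, no filter or the block, 0 with the block and the trend removed, and 0 to 11 with 1 left out. The shares of all genes, in the same order, were 24.6%, 14.5%, 24.9%, 16.0% and 18.6% to 34.4%. With 1 left out, positive calls numbered 13 to 16, where 14.8% to 24.3% of all genes were positive, and ZNF165 ranged from −4.88 to −4.29.

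No call reversed, but some values short of the threshold took the other sign and passed it. Without knockdown replicate 1, the knockdown values were PSMA4 −1.47, PSMA6 −1.63 and PSMC1 −1.54, and the differences between arms −1.43, −0.905 and −1.314. Without knockdown replicate 3 these values were 0.56, 0.97 and 0.50, and 0.65, 1.75 and 0.79. PSMD12 became 1.58 in the knockdown with the trend removed and 1.59 with the block as well, and 2.08 and 2.06 in the difference between arms, where PSMA5 became 2.05 with the trend removed. Between the lines PSMB4 became −0.59 with the trend removed and with the block as well, PSMB3 −0.62 and PSMD8 −0.46 with both. The cause was not tested.

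The median over all genes moved with the scaling from −0.20 (TMM) to −0.92 (library totals) in the knockdown and from −0.002 to 0.10 in the overexpression. Same-numbered libraries correlated at 0.291, 0.431 and −0.357 in the knockdown and at −0.055, −0.055 and 0.087 in the overexpression, so the numbers are no pairing there. The replicate block gave 14 risen and 5 fallen subunits in the knockdown and 0 in the overexpression. With it, 19.5% and 27.3% of all genes rose and fell in the knockdown, and 0.0316% and 0.0189% in the overexpression. With 3 libraries a group, subunits with scattered libraries such as PSMA5 have SEs near 0.88 on the log2 scale. Changes below that size, and also well above it, could go undetected. PSMC6, at a log2 fold change of −1.83 in the knockdown, did not pass.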
